A study of Homo sapiens with 24 samples.

Results

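Eph receptors are tyrosine kinases at the cell surface, and ephrins are their ligands, which are themselves held on the membrane of the neighbouring cell. Binding therefore needs contact between cells and can signal into both of them, with attraction, repulsion or sorting of cells as the known outcomes. A-type ephrins are tethered by a lipid anchor and B-type ephrins cross the membrane, and receptors bind mainly ligands of their own class. In the colon the B receptors EPHB2 and EPHB3 mark the cells near the crypt base, where Wnt signaling is high, and both are known targets of beta-catenin and Tcf4, while B-type ephrins lie toward the crypt mouth.

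The genes described here are 10 members of this family, namely the receptors EPHA1, EPHA2, EPHA4, EPHB2, EPHB3 and EPHB4 and the ephrins EFNA1, EFNA4, EFNB1 and EFNB2. They were chosen by name, as every non-control probe that the arrays assign to these symbols, which gave 13 of 34127 probes. EPHB2 had 3 probes, EPHB4 had 2, and the other 8 genes had 1 each. By the test of the feature extraction software, all 13 had a signal well above background on each of the 24 arrays, and none was saturated.

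The cells were HCT-116, a human colorectal cancer line, carrying a Tet repressor and a FLAG-tagged dominant negative Tcf4 (DN-Tcf4) that is induced by doxycycline. DN-Tcf4 occupies the DNA sites of Tcf without recruiting beta-catenin and so represses Wnt target genes. All groups came from 1 selected clone and share both vectors. They were left untreated (Ctl), given 5 mM sodium butyrate (NaB), given 4 μg/ml doxycycline (Doxy), or given both agents (DoxyNaB), with 17.5 hr of butyrate. Butyrate is a histone deacetylase inhibitor made in the colon from dietary fiber. Each of 6 experiments gave 1 array per treatment.

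Levels are given as the log2 ratio of a signal to the 75th percentile of its array, so that 0 is that percentile and 1 unit is a 2-fold difference. They allow a probe to be followed across arrays and do not rank 1 gene against another. The share of spots well above background was 52.5% to 88.1% per array, with experiments 2 to 4 between 78.3% and 88.1% and experiments 1, 5 and 6 between 52.5% and 62.4%. Of 8 markers of colon epithelium, 6 passed this test on all 24 arrays, whereas the villin gene VIL1 passed it on 0 of the Ctl arrays. Of 9 markers of other cell types 2 (DES and ACTA2) passed it on all 24 arrays. In whole-culture RNA a change in the number of expressing cells and a change in RNA per cell cannot be told apart.

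The sequences that the EPHB2 and EPHB3 signals come from are shown because these genes had the largest changes among the members. Each probe has 60 bases, and its first 30 bases are printed 5′ to 3′. The files place them on the forward strand of NCBI36, and none of their bases is set in capitals.
EPHB2, chr1:23112628-23112687: agattcagtctgtggaggtttgacattcac
EPHB2, chr1:23112891-23112950: ggaatattttttaaagaggattctcataag
EPHB2, chr1:23113251-23113310: attttagaaactccaatgaaagacactgtt
EPHB3, chr3:185782519-185782578: aactggaggaggggactccaggaatgggga
The 3 EPHB2 probes lie within one stretch of the gene and do not overlap, so they give 3 readings of the same RNA from the same arrays. The last of them, at chr1:23113251-23113310, had the highest mean level and represents the gene below.

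For 3 of the 13 probes the files give a span longer than the probe, so that the probe crosses at least 1 splice junction. The EPHA1 probe is shown as an example, since such a probe reads spliced RNA. It lies on the reverse strand of NCBI36 at chr7:142801044-142801432 and covers 389 bases of the genome with 60 bases of sequence.
EPHA1: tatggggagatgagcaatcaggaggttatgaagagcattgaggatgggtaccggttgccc
The second probe of EPHB4, at chr7:100239102-100240736 on the reverse strand, also crosses a junction, whereas the first EPHB4 probe, at chr7:100238467-100238526, does not.
EPHB4, second probe: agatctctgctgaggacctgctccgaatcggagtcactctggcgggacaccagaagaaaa
The third probe that spans more than its length is that of EPHA2, at chr1:16324387-16328559 on the reverse strand.

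The first question was how butyrate alone changed these genes (NaB/Ctl). EPHB3 rose 9.91-fold, EPHB2 4.03-fold, EPHA4 3.88-fold, EPHA1 3.22-fold and EFNB2 2.35-fold. EFNB1 rose 1.57-fold, a direction that turned under 1 of the 5 scalings described below. EFNA1 fell 1.69-fold and EPHB4 fell 1.56-fold, and EPHA2 and EFNA4 did not pass the test. The test was limma over all 18961 probes measured well above background in at least 1 treatment, with the experiment as a block and a call at a Benjamini-Hochberg adjusted p under 0.01. By probe, 11 of 13 (84.6%) were called, 8 higher and 3 lower, where 68.3% of all tested probes were called, 40.1% higher and 28.2% lower. With a fold over 2 required as well, 7 of 13 (53.8%) were called, all 7 higher, against 31.7% of all tested probes, 20.7% higher and 11% lower. Over the 10 genes the median log2 change was 0.94, and that over all tested probes was 0.17. In 10 of the 13 probes the 6 NaB arrays and the 6 Ctl arrays did not overlap, beside 43.1% of all tested probes.

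**Figure D1:**
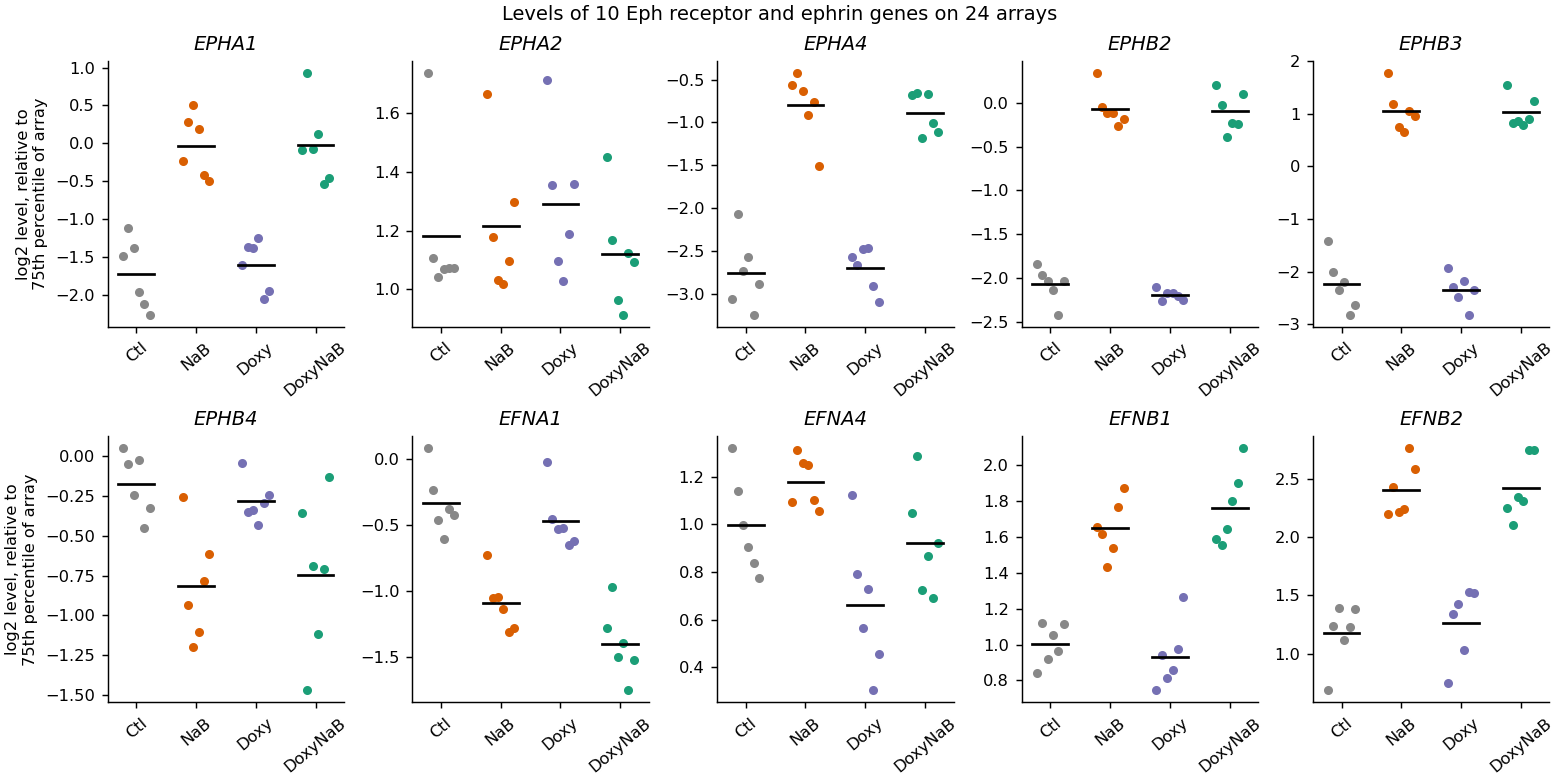
Level of each of the 10 genes (log2 ratio to the 75th percentile of the array, vertical axis, a separate scale for each gene) on the 24 arrays, by treatment. Each point is 1 array and each bar the mean of 6. EPHA1, EPHA4, EPHB2, EPHB3, EFNB2 and EFNB1 (which turned under scaling to the array median) stand higher in NaB and DoxyNaB than in Ctl and Doxy without overlap, EFNA1 stands lower without overlap, and EPHA2, EPHB4 and EFNA4 overlap.

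Among the B receptors, EPHB3 had a level of -2.83 at the lowest, -2.28 at the median and -1.43 at the highest in Ctl, and of 0.66, 1.01 and 1.78 in NaB. Every NaB array was thus more than 2 log2 units above the highest Ctl array. The log2 change was 3.31 (95% interval 3.03 to 3.59), it was higher in 6 of 6 experiments with a range of 2.86 to 3.88, and limma gave an adjusted p of 2.42e-13.

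EPHB2 rose from -2.43, -2.04 and -1.85 (lowest, median and highest Ctl array) to -0.26, -0.11 and 0.34 in NaB. Its log2 change of 2.01 (1.84 to 2.18) had an adjusted p of 2.39e-13 in limma and varied little between the 6 experiments, from 1.85 to 2.19. The other EPHB2 probes changed by 2.11 and 1.75, with adjusted p of 7.37e-10 and 3.03e-10 in limma, so that all 3 probes printed above were called in the same direction. Within each experiment EPHB3 rose more than EPHB2, by 1.30 ± 0.37 on the log2 scale (SD, n = 6), in 6 of 6 experiments (two-sided exact sign-flip test, p = 0.03125, the smallest that 6 experiments allow). This pair was chosen after the values were seen, as were the other pairs of genes compared here, 10 comparisons in all. The Benjamini-Hochberg adjusted p of each was 0.03125. That adjustment covers only the chosen pairs and does not correct for the choice, so these p-values describe agreement between experiments and no more.

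EPHB4, the receptor that binds mainly ephrin-B2, went the other way. Its level was -0.45, -0.15 and 0.05 in Ctl and -1.20, -0.86 and -0.26 in NaB (lowest, median and highest), and the groups overlapped. The log2 change of -0.64 (-0.96 to -0.32) was lower in 6 of 6 experiments and had an adjusted p of 0.000921 in limma. The junction-crossing EPHB4 probe changed by -0.39 with an adjusted p of 0.00112 in limma. EPHB4 changed by -0.97 in experiments 2 to 4, which share a scan date. It changed by -0.31 in experiments 5 and 6, which share another scan date, where limma gave an adjusted p of 0.111.

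Of the A receptors, EPHA4, which can also bind B-type ephrins, rose from -3.24, -2.80 and -2.06 in Ctl to -1.50, -0.69 and -0.43 in NaB (lowest, median and highest). Its log2 change was 1.96 (1.65 to 2.26), with an adjusted p of 7.59e-10 in limma and a range over experiments of 1.38 to 2.49. EPHA1 rose from -2.26, -1.72 and -1.11 to -0.49, -0.02 and 0.50. The EPHA1 change was 1.69 (1.41 to 1.97) with an adjusted p of 1.62e-09 in limma, higher in 6 of 6 experiments. Both receptors had no array of one group within the range of the other.

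EPHA2, the best studied A receptor in carcinoma, had levels of 1.04, 1.07 and 1.74 in Ctl and of 1.02, 1.14 and 1.67 in NaB (lowest, median and highest), and the groups overlapped over nearly their whole range. Its log2 change was 0.03 (-0.09 to 0.15), and limma gave an adjusted p of 0.615.

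The ephrins moved in both directions. EFNB2, the ligand shared by EPHB4 and other B receptors, had levels of 0.68, 1.23 and 1.39 in Ctl and of 2.20, 2.33 and 2.76 in NaB. The log2 change was 1.23 (1.03 to 1.43) with an adjusted p of 1.67e-09 in limma. EFNB1, a ligand of EPHB2 and EPHB3, had levels of 0.84, 1.01 and 1.12 in Ctl and of 1.43, 1.64 and 1.87 in NaB, without overlap. Its log2 change was 0.65 (0.51 to 0.79) with an adjusted p of 7.88e-08 in limma. Within an experiment EFNB2 rose more than EFNB1, by 0.58 ± 0.17 on the log2 scale (SD, n = 6), in 6 of 6 experiments (exact sign-flip test, p = 0.03125).

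EFNA1, a main ligand of EPHA2, fell. Its levels were -0.60, -0.40 and 0.08 in Ctl and -1.31, -1.09 and -0.73 in NaB (lowest, median and highest), without overlap, and the log2 change was -0.75 (-0.93 to -0.58) with an adjusted p of 1.99e-07 in limma. The B-type EFNB1 and the A-type EFNA1 differed in their butyrate change by 1.40 ± 0.30 on the log2 scale (SD, n = 6), in 6 of 6 experiments (exact sign-flip test, p = 0.03125). EFNA4, another lipid-anchored ligand, had levels of 0.77, 0.95 and 1.32 in Ctl and of 1.06, 1.18 and 1.31 in NaB. Its log2 change of 0.18 (-0.01 to 0.37) was higher in 5 of 6 experiments and had an adjusted p of 0.0728 in limma. Without experiment 1, in which EFNA4 changed by -0.23, the EFNA4 change was 0.27 with an adjusted p of 0.00588 in limma.

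The second comparison was butyrate in cells that also received doxycycline (DoxyNaB/Doxy). The 6 genes that rose in NaB/Ctl rose here as well, EPHB3 by 10.4-fold, EPHB2 by 4.28-fold, EPHA4 by 3.5-fold, EPHA1 by 2.99-fold, EFNB2 by 2.22-fold and EFNB1 by 1.78-fold. Under median scaling the changes of EFNB2 (0.59 on the log2 scale, adjusted p of 0.032 in limma) and EFNB1 (0.27, 0.275) did not pass. EFNA1 fell 1.91-fold and EPHA2 fell 1.13-fold, whereas EPHB4 and EFNA4 did not pass the test. By probe, 10 of 13 (76.9%) were called, 8 higher and 2 lower, beside 67.1% of all tested probes (37.3% higher and 29.7% lower), and 7 of 13 also had a fold over 2, beside 30.6% of all (18.3% higher and 12.3% lower). In 9 of the 13 probes the DoxyNaB and Doxy arrays did not overlap, beside 41.5% of all tested probes.

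EPHB3 stood at -2.83, -2.32 and -1.93 in Doxy and at 0.79, 0.89 and 1.56 in DoxyNaB (lowest, median and highest), a log2 change of 3.38 (3.1 to 3.66) with an adjusted p of 1.77e-13 in limma. For EPHB2 the levels were -2.26, -2.19 and -2.10 in Doxy and -0.39, -0.13 and 0.20 in DoxyNaB, and the log2 change was 2.10 (1.93 to 2.27) with an adjusted p of 1.35e-13 in limma. Again EPHB3 exceeded EPHB2 in 6 of 6 experiments, by 1.28 ± 0.33 (SD, n = 6, exact sign-flip test, p = 0.03125). The other EPHB2 probes changed by 1.72 and 1.64. EPHA4 changed by 1.81 (adjusted p of 2.27e-09) and EPHA1 by 1.58 (4.04e-09) in limma, both in 6 of 6 experiments.

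Of the ligands, EFNB2 changed by 1.15 (adjusted p of 4.31e-09), EFNB1 by 0.83 (2.56e-09) and EFNA1 by -0.93 (1.16e-08) in limma, each with 6 of 6 experiments in 1 direction. EFNA1 had levels of -0.65, -0.52 and -0.02 in Doxy and of -1.75, -1.44 and -0.97 in DoxyNaB. EFNB1 and EFNA1 differed in this change by 1.77 ± 0.34, and EFNB2 exceeded EFNB1 by 0.32 ± 0.21 (SD, n = 6), both in 6 of 6 experiments (exact sign-flip test, p = 0.03125). EPHA2 fell by 0.17 on the log2 scale, in 6 of 6 experiments, with an adjusted p of 0.00919 in limma, and leaving out any 1 of the 6 experiments ended this call (adjusted p from 0.0161 to 0.0306). EPHB4 changed by -0.46 (adjusted p of 0.0104) and EFNA4 by 0.26 (0.0136) in limma, each just short of the threshold. EPHB4 passed under 8 of 23 alternatives, among them median scaling (-1.02, adjusted p of 0.00317) and leaving out experiment 6 (-0.58, 0.00311), and EFNA4 passed without experiment 1 (0.33, 0.00125).

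**Figure D2:**
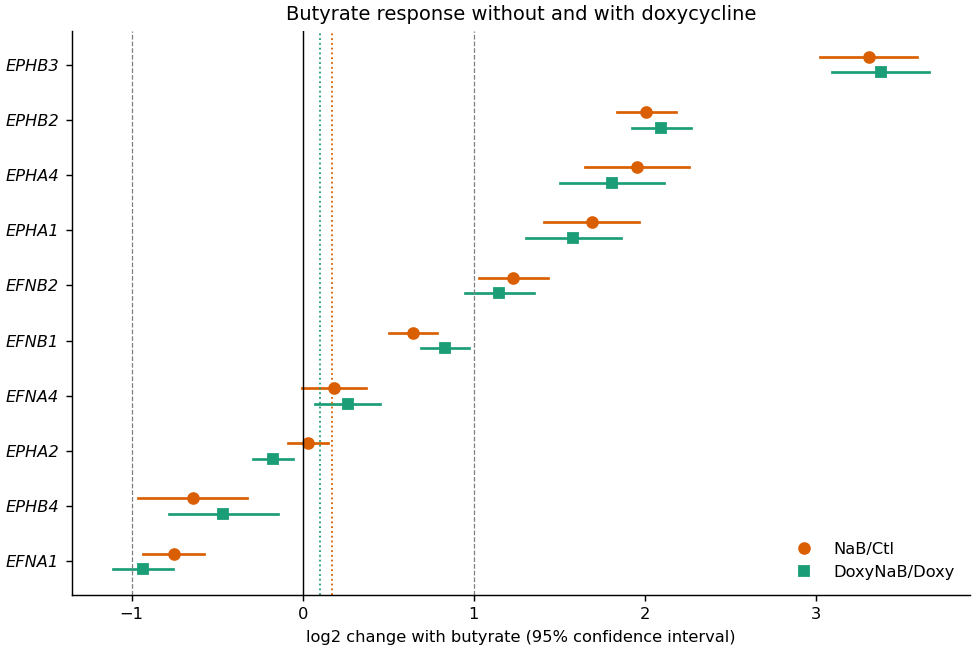
log2 change with butyrate (horizontal axis) for the 10 genes, without doxycycline (NaB/Ctl, circles) and with it (DoxyNaB/Doxy, squares). Bars are 95% confidence intervals from limma, dashed lines mark a 2-fold change, and dotted lines mark the median of all tested probes, 0.17 and 0.10. The intervals of both comparisons overlap for each gene, from EPHB3 at 3.31 and 3.38 to EFNA1 at -0.75 and -0.93.

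Both sets of experiments that share a scan date had EPHB3 above EPHB2. In NaB/Ctl, EPHB3 changed by 3.05 in experiments 2 to 4 and by 3.74 in experiments 5 and 6, and EPHB2 changed by 1.95 and 2.01. EFNB1 changed by 0.50 and 0.78 and EFNA1 by -0.65 and -0.89 in these 2 sets, and all of these passed limma's threshold. Experiment 1 had its butyrate and its other arrays on different slides, so that slide and butyrate cannot be told apart there.

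The size of these changes depended on how the arrays were scaled to each other. The median NaB/Ctl change of all tested probes was 0.17 with the scaling used here and 0.08 with the percentile taken over probes. It was 0.07 after normexp background correction, -0.09 after quantile normalization and -0.58 after scaling to the array median. Among the probes called in NaB/Ctl the share that was higher was 58.7%, 53.7%, 51.2%, 46.9% and 21.7% in the same order. Without the filter on brightness, the median change with the scaling used here was 0.69. In experiments 2 to 4 the net signal of the negative controls was 112.1 to 161.0 on NaB arrays and 63.1 to 76.9 on Ctl arrays. In experiments 5 and 6 it was 48.8 to 49.9 and 48.4 to 49.5. The part of this signal in the changes was not tested. EPHA1, EPHA4, EPHB2 and EPHB3 were called higher under all 5, with EPHB3 between 2.42 and 3.31 and EPHB2 between 1.26 and 2.01. EFNB1 changed sign to -0.10 under the median scaling alone, EFNA4 went from 0.18 to -0.57 and EPHA2 from 0.03 to -0.72 there. Relative to the median of all probes under that scaling, EFNB1 was higher, EFNA4 was level with it and EPHA2 was lower. EFNA1 and EPHB4 were lower under all 5, and EPHB4 missed the threshold after quantile normalization (-0.93, adjusted p of 0.0297 in limma).

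**Figure D3:**
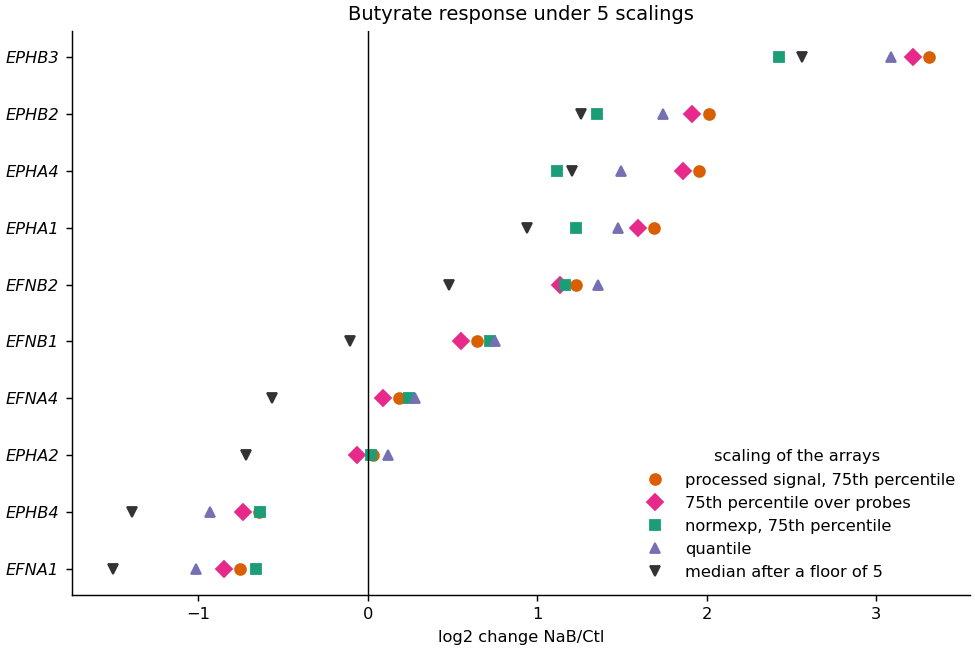
log2 change NaB/Ctl (horizontal axis) of the 10 genes under 5 ways of scaling the arrays, 1 symbol per scaling. The vertical line marks no change. The 4 upper genes (EPHB3, EPHB2, EPHA4 and EPHA1) stay above 0.9 under each, EFNB2 stays above 0, and EFNB1, EFNA4 and EPHA2 cross to -0.10, -0.57 and -0.72 under median scaling. EPHA2, close to 0 with the scaling used here, also lies below 0 with the percentile taken over probes.

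Of the 9 markers of other cell types 5 could be tested and 4 of these rose in NaB/Ctl, beside 40.1% of all tested probes. The count was 3 after normexp correction, 3 after quantile normalization and 2 under median scaling. Among the 4 were the muscle gene DES by 2.10, the monocyte gene CD14 by 1.35 and the collagen gene COL1A1 by 1.09 on the log2 scale. ACTA2 changed by -0.28 without passing limma's threshold. The summed level of the 9 markers, in multiples of the 75th percentile signal, was 0.841 to 1.42 in Ctl, 0.816 to 1.39 in Doxy, 1.93 to 3.14 in NaB and 1.83 to 3.48 in DoxyNaB. The leukocyte gene PTPRC, the T cell gene CD3E, the endothelial gene PECAM1 and COL1A2 were well above background on all 6 arrays of no treatment. The part of such genes in the member changes was not tested.

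The third question was whether the induction of DN-Tcf4 altered these genes. For reference, AXIN2, a feedback inhibitor and standard Wnt target, fell by 2.53 on the log2 scale in DoxyNaB/NaB (adjusted p of 2.63e-11 in limma) and by 0.58 in Doxy/Ctl (0.00289). The second of these calls ended under 3 of the 4 other scalings (adjusted p from 0.519 to 1.00) and without any 1 of experiments 2 to 6 (0.0111 to 0.0411). SP5, a Wnt-induced transcription factor, changed by -1.76 and -0.20 in these comparisons, and the growth regulator MYC by -1.52 and 0.08. TCF7L2, the gene of Tcf4, read 2.96 higher in DoxyNaB than in NaB on its probe of highest level (adjusted p of 3.68e-05 in limma) and -0.17 in Doxy/Ctl (0.921). Its other probes changed by 4.46 (1.77e-06) and, in the opposite direction, by -1.25 (0.00567) in DoxyNaB/NaB, and by 0.30 and 0.36 in Doxy/Ctl without passing. Which of these probes read RNA of the construct and which of the endogenous gene was not tested, and with doxycycline alone they gave no check that the construct was induced. In the paper's western blot, DN-Tcf4 protein was minimal with doxycycline alone and high with both agents. By that blot Doxy/Ctl compared cells with little DN-Tcf4, and DoxyNaB/NaB is the comparison with high DN-Tcf4. The paper also measured Wnt activity in this clone with a luciferase reporter. Reporter activity was lower with doxycycline alone than in untreated cells, a difference given without a test. It was far lower with both agents than with butyrate alone.

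No member probe was called under doxycycline, either without butyrate (Doxy/Ctl) or with it (DoxyNaB/NaB), where limma called 0.501% and 2.48% of all tested probes. The 13 probes lay between -0.34 and 0.24 in Doxy/Ctl and between -0.31 and 0.12 in DoxyNaB/NaB. At an unadjusted p under 0.05 limma called 1 and 2 of the 13, beside 12.6% and 15.4% of all. The methods' t-test, paired by experiment, called 0 in each after Benjamini-Hochberg adjustment, beside 0.0527% and 0.132% of all. Unadjusted under 0.01 it called 1 in Doxy/Ctl, EFNA4, and 0 in DoxyNaB/NaB, beside 7.09% and 5.41% of all.

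For EPHB3 the change in DoxyNaB/NaB was -0.03 (95% interval -0.31 to 0.25) and for EPHB2 -0.03 (-0.20 to 0.14), so that a fall of the size seen for AXIN2 lay outside both intervals. Within each experiment the change of AXIN2 was lower than that of EPHB2 by 2.49 ± 0.36 and lower than that of EPHB3 by 2.50 ± 0.25 (SD, n = 6), in 6 of 6 experiments (exact sign-flip test, p = 0.03125, the smallest possible). In Doxy/Ctl EPHB3 changed by -0.10 (-0.38 to 0.18) and EPHB2 by -0.12 (-0.29 to 0.05). EPHA4 and EPHA1 changed by -0.09 and 0.01 in DoxyNaB/NaB and by 0.06 and 0.12 in Doxy/Ctl. Their single experiments ranged from -0.58 to 0.65 for EPHA1 in DoxyNaB/NaB, the widest spread of the receptors there.

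The A-type ephrins had the lowest adjusted p of the members in DoxyNaB/NaB, and EFNA4 had the lowest in Doxy/Ctl. EFNA4 was lower with doxycycline in 6 of 6 experiments in both settings, with changes of -0.34 (-0.52 to -0.15) in Doxy/Ctl and -0.26 (-0.44 to -0.07) in DoxyNaB/NaB and adjusted p of 0.0808 and 0.134 in limma. EFNA1 was lower in 5 of 6 experiments in DoxyNaB/NaB, with a change of -0.31 (-0.49 to -0.13) and an adjusted p of 0.0411 in limma, and changed by -0.13 in Doxy/Ctl. Without experiment 2 the EFNA1 change in DoxyNaB/NaB was -0.39 and passed, with an adjusted p of 0.00867 in limma. EFNB1 and EFNB2 changed by 0.12 and 0.01 in DoxyNaB/NaB and by -0.07 and 0.09 in Doxy/Ctl.

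**Figure D4:**
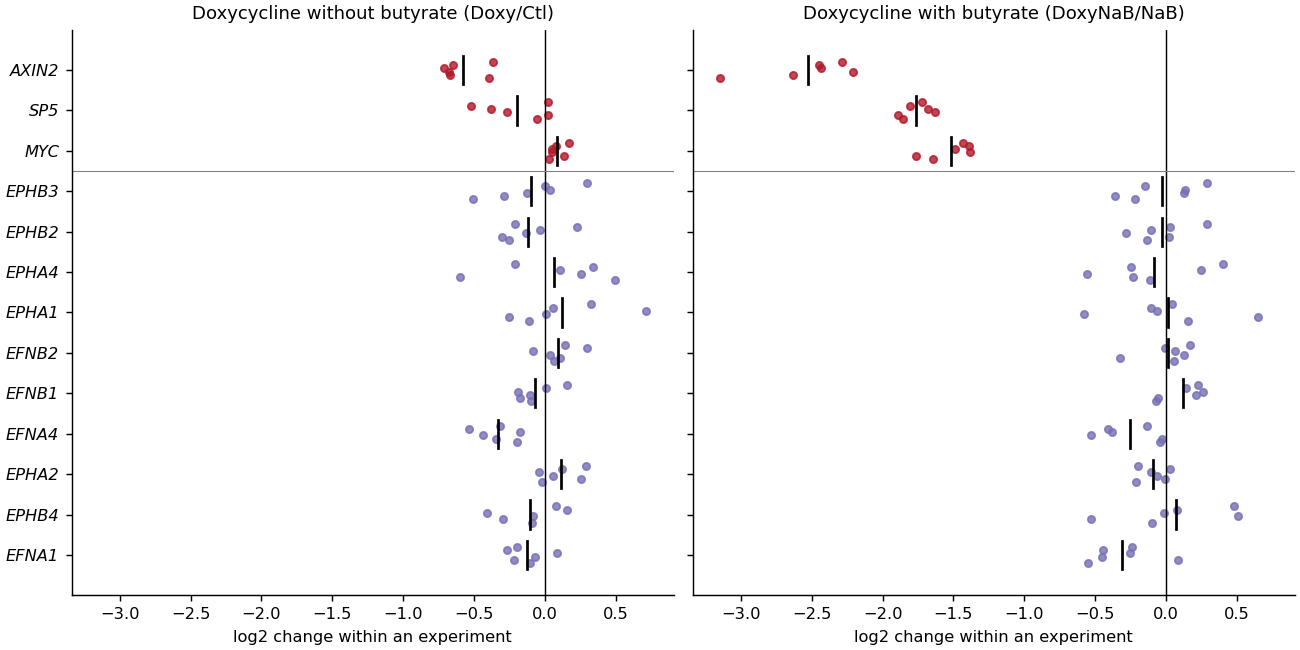
log2 change with doxycycline within each of 6 experiments (points) and their mean (bars), without butyrate on the left and with it on the right, for the 10 genes and, above the line, 3 Wnt targets. In DoxyNaB/NaB AXIN2, SP5 and MYC lie at -2.53, -1.76 and -1.52 on average, whereas the 10 genes lie between -0.31 and 0.12.

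The difference between the butyrate responses without and with doxycycline (NaB/Ctl minus DoxyNaB/Doxy) was tested as an interaction. No member probe was called, beside 1.24% of all tested probes, and 1 of 13 had an unadjusted p under 0.05 in limma, beside 12% of all. The lowest adjusted p was 0.263, for EPHA2, whose interaction was 0.20 (0.04 to 0.37) and above 0 in 6 of 6 experiments. EFNB1 had an interaction of -0.19 (-0.39 to 0.01), below 0 in 6 of 6 experiments, with an adjusted p of 0.459. For EPHB3 the interaction was -0.07 (-0.47 to 0.33) and for EPHB2 -0.09 (-0.33 to 0.16), whereas AXIN2 had 1.95 with an adjusted p of 8.23e-08 in limma (1.76 and 0.0201 under median scaling). The interaction of AXIN2 exceeded those of EPHB2 and EPHB3 by 2.03 ± 0.58 and 2.02 ± 0.51 (SD, n = 6), in 6 of 6 experiments (exact sign-flip test, p = 0.03125).

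The promoters were read because DN-Tcf4 acts at Tcf sites. RefSeq gave 12 start sites for the 10 genes, each with 250 bases before and 50 after the start, in GRCh38.p14. The Tcf/Lef letters searched were CAAAG preceded by AA, AT, TA or TT, on both strands, and the GC box was GGGCGG on both strands. Tcf/Lef letters were found in 1 of the 10 genes, EFNA4, as CTTTGTA from position 10 after the start, and in 13.8% of all 35116 promoters. The GC box was found in 10 of 10 genes, and in 45.0% of all promoters. The promoters of EPHB2 and EPHB3, which had the largest butyrate changes among the members, are shown in full on the forward strand, with the GC boxes in capitals.
EPHB2, chr1:22710588-22710887: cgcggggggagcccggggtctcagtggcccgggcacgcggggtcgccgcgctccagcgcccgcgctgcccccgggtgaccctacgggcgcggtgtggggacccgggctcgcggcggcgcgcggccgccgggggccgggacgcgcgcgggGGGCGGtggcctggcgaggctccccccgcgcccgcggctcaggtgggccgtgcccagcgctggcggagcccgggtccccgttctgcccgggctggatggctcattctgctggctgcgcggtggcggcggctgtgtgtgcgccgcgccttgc
EPHB3, chr3:184561535-184561834: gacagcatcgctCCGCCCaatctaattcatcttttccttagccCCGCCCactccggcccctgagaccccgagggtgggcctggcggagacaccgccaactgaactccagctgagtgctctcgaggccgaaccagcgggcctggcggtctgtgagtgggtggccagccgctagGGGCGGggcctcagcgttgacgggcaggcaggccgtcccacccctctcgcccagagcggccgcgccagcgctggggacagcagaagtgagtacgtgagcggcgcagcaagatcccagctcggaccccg
The EPHB2 promoter was 83% G and C with 49 CpG dinucleotides, and the EPHB3 promoter was 69% with 26, where the median over all promoters was 58.7% with 14. Windows of 300 bases hold no distal sites, and the absence of these letters says nothing of Tcf binding elsewhere.

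The rest of the family was mostly dim. Of 8 other Eph receptors and 4 other ephrins, 2 of each had a probe that could be tested. EPHB6, a receptor without kinase activity, stood at -1.89, -1.78 and -1.18 in Ctl and at -0.61, -0.42 and 0.24 in NaB (lowest, median and highest), and it rose by 1.36 in NaB/Ctl (adjusted p of 2.54e-10) and by 1.44 in DoxyNaB/Doxy (1.13e-10) in limma, although under median scaling its NaB/Ctl change of 0.61 did not pass (0.025). EPHA10 rose by 0.58 in NaB/Ctl (adjusted p of 0.000502 in limma), a direction that turned to -0.38 after quantile normalization and to -0.17 under median scaling, and changed by 0.34 in DoxyNaB/Doxy (0.0218).

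Of the other ephrins, EFNA3 stood at -1.89, -1.18 and -1.03 in Ctl and at -0.57, -0.27 and 0.03 in NaB. It rose by 1.02 in NaB/Ctl and by 1.05 in DoxyNaB/Doxy, with adjusted p of 4.22e-07 and 2.79e-07 in limma, and its NaB/Ctl change under median scaling was 0.27 (0.19). EFNA2 changed by -0.94 in NaB/Ctl (adjusted p of 0.0213) and fell by 1.32 in DoxyNaB/Doxy (0.00241), with single arrays from -5.55 to -2.35, a call that ended under 8 of 22 alternatives, among them normexp correction (-0.01), no replicate block and leaving out experiment 5 (-1.07, adjusted p of 0.0176) or 6 (-1.19, 0.0134). None of these 4 genes was called in Doxy/Ctl, DoxyNaB/NaB or the interaction. EFNA5 and EFNB3 and the receptors EPHA3, EPHA5, EPHA6, EPHA7, EPHA8 and EPHB1 were not tested, because no treatment had all 6 arrays well above background.

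Downstream of the receptors, 42 genes of Eph and ephrin signalling were listed, of which 38 could be tested. In NaB/Ctl 11 were higher, 14 lower and 13 did not pass, where 40.1% of all tested probes were higher and 28.2% lower. The median log2 change was -0.11, beside 0.17 for all tested probes. In DoxyNaB/Doxy 10 were higher, 13 lower and 15 did not pass, beside 37.3% higher and 29.7% lower of all tested probes. These counts use the brightest probe of each gene, and some dimmer probes differed in NaB/Ctl. ABL1 was counted as lower (-0.77), but its dimmer probe was called higher (0.97, adjusted p of 0.000652 in limma). A dimmer probe of INPPL1 (-1.11), CDC42 (0.56) and ROCK1 (0.48) passed where the brightest did not. The dimmer probes of NCK2 and ROCK2 did not pass where the brightest did. Under median scaling 1 of the 38 was higher and 22 lower in NaB/Ctl, where 59% of all tested probes were called. Under the 3 other alternatives 6 to 10 were higher and 9 to 16 lower, where 43.8% to 66.7% of all were called. Of the Src family kinases in the list, FYN and SRC went opposite ways. YES1 did not pass in NaB/Ctl (-0.33, adjusted p of 0.0117) or DoxyNaB/Doxy (-0.33, 0.0114) in limma. FYN rose by 1.91, from a Ctl range of -0.26 to -0.02 to a NaB range of 1.66 to 1.89 (adjusted p of 1.21e-13 in limma). SRC fell by 2.55, from a Ctl range of -0.33 to 0.48 to a NaB range of -3.53 to -1.82 (5.15e-10). Both kept their direction and their call under all 5 scalings. Their changes in DoxyNaB/Doxy were 1.69 and -2.43.

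The other genes with the largest changes in this list were adaptors and effectors. SDCBP (syntenin), which binds the tail of B-type ephrins, rose by 1.27 (adjusted p of 7.52e-05 in limma). SDCBP had a value on 6 Ctl, 3 NaB, 5 Doxy and 4 DoxyNaB arrays, so its NaB/Ctl change rests on 3 NaB arrays. By the methods' t-test, adjusted or unadjusted, the NaB/Ctl change of SDCBP did not pass. ANKS1A, an adaptor of Eph receptors, rose by 0.88 (adjusted p of 5.64e-10 in limma). LIMK1, a kinase that inactivates the actin-severing protein cofilin, fell by 0.92 (3.77e-06), and the adaptor SHC1 fell by 0.87 (6.36e-10) in limma. These 4 changed in the same direction in DoxyNaB/Doxy, by 1.00, 0.99, -0.67 and -0.78. Under median scaling the NaB/Ctl changes of SDCBP and ANKS1A were 0.37 and 0.13 and did not pass.

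Under doxycycline limma called 1 of the 38 genes in Doxy/Ctl, 0 in DoxyNaB/NaB and 1 in the interaction. Of all tested probes it called 0.501%, 2.48% and 1.24%. Both calls among the 38 were GRB10, an adaptor that binds receptor tyrosine kinases. GRB10 stood at -1.41, -1.31 and -0.92 in Ctl, -1.83, -1.55 and -1.27 in NaB, -0.90, -0.56 and -0.43 in Doxy and -2.16, -1.96 and -1.59 in DoxyNaB (lowest, median and highest). Its change was 0.64 in Doxy/Ctl (adjusted p of 0.0023), -0.28 in NaB/Ctl (0.0195) and -1.29 in DoxyNaB/Doxy (2.01e-09), and the interaction was 1.01 (0.000446) in limma. The interaction of GRB10 did not pass after normexp correction (0.47, adjusted p of 0.539), quantile normalization (1.13, 0.384) or median scaling (0.82, 0.983). Its Doxy/Ctl call ended under the same 3 and without experiment 2, 3 or 5 (0.62, 0.60 and 0.58). These values are of the brighter GRB10 probe. The other probe had an interaction of 1.01 (adjusted p of 0.0791) and a Doxy/Ctl change of 0.45 (0.347) in limma, and neither passed. Of 8 genes of cell adhesion, 4 rose and 1 fell in NaB/Ctl (0 and 2 under median scaling), where 40.1% of all tested probes were higher and 28.2% lower. Among them E-cadherin (CDH1), which holds epithelial cells together, rose by 0.99 in NaB/Ctl and by 0.87 in DoxyNaB/Doxy (adjusted p of 1.03e-07 and 5.62e-07 in limma, with 0.24 and 0.386 for NaB/Ctl under median scaling), and 0 of the 8 were called under doxycycline. CDH1 is also 1 of the 8 markers of colon epithelium, of which 7 could be tested and 3 rose and 2 fell in NaB/Ctl, the adhesion molecule EPCAM by 1.45 and the transcription factor CDX2 by 0.67 on the log2 scale (adjusted p of 2.47e-06 and 2.6e-05 in limma, EPCAM without a value on 2 arrays).

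**Figure D5:**
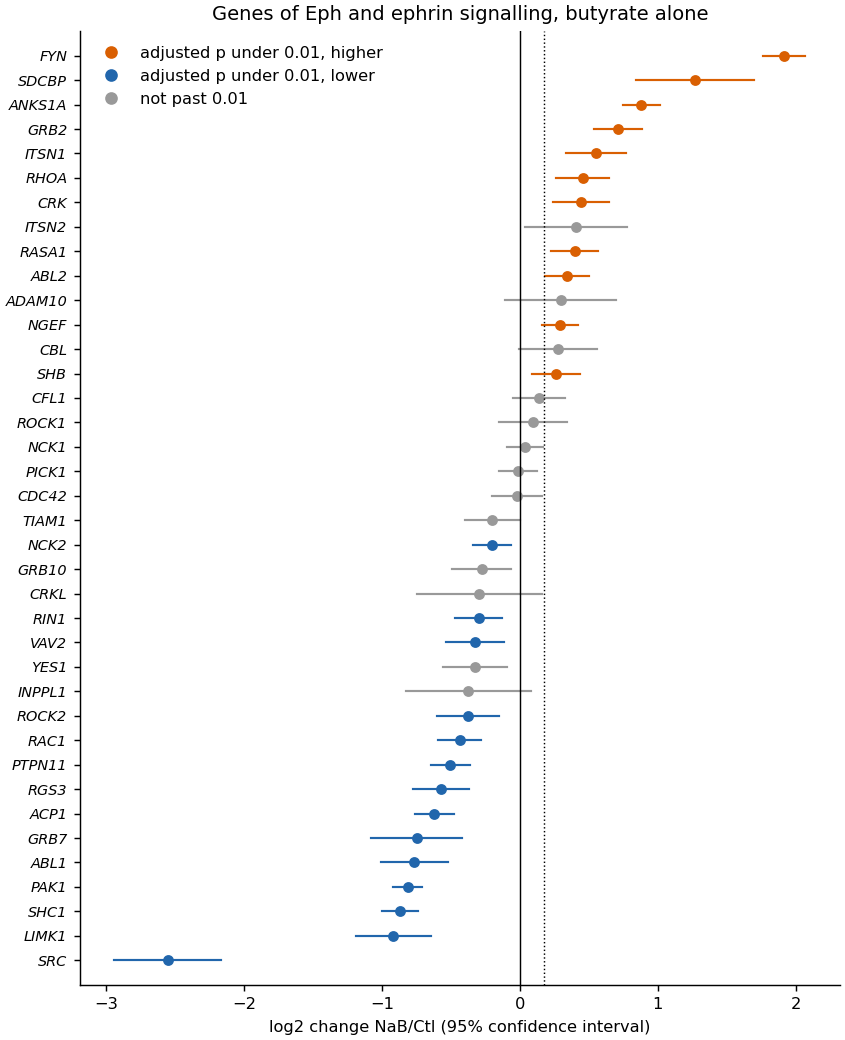
log2 change NaB/Ctl (horizontal axis) with its 95% confidence interval from limma for the 38 tested genes of Eph and ephrin signalling, orange for 11 called higher, blue for 14 called lower and grey for 13 that did not pass. The dotted line is the median of all tested probes, 0.17. FYN at 1.91 and SRC at -2.55 are at the ends.

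The genes whose levels ran most like those of the B receptors and B-type ephrins were found by Pearson's r over the 24 arrays after removal of each experiment's mean, as a description. The difference between arrays with and without butyrate makes up most of this likeness. For EPHB2 they were WFS1 (r = 0.995), CRISPLD2 and IL10RA, and for EPHB3 they included ELOVL3 (r = 0.997) and DHX58. For EFNB1 they were GALNT2 (r = 0.992), EEPD1 and GLCE, and for EFNB2 they were HERC1 (r = 0.995), BLTP1 and MXD1.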

How the data were processed

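The deposited files hold the spot intensity of 24 single-colour Agilent 4x44K arrays, which per the file headers the authors made with Agilent Feature Extraction 9.5.3.1, with background and spatial trend removed within each array and no scaling between arrays. Spots that were controls or carried an outlier flag were dropped, spots of one probe were averaged, and log2 processed signals were taken relative to the array's 75th percentile (380.2 to 1323 in signal units). The tests covered the 18961 probes (15151 genes) whose 6 arrays of some treatment were all well above background, and all 13 member probes are among them. Treatments were compared in limma 3.58.1 (R 4.3.3, lmFit and eBayes) over all 24 arrays with the experiment as a block, Benjamini-Hochberg adjustment over all tested probes and a call at an adjusted p under 0.01. The fit was tested on simulated data. Differences between genes within experiments were tested by exact sign flips. Where a gene had several probes, the brightest on average stands for it.

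Named are all 10 members, the tested genes of the rest of the family, the 3 highest and 3 lowest called genes of the signalling list in NaB/Ctl, its genes called in Doxy/Ctl or the interaction, CDH1, and the Wnt targets used as a check. Of the markers of other cell types and of the genes of similar pattern, 1 each is not reported here by name. The members and lists were chosen with earlier results of these data known. The alternatives were 4 other scalings, 2 other filters, other blocks and sets of arrays, the methods' t-test, other thresholds and leaving out arrays. The percentile over probes was added after seeing the data. Coordinates of probes are those of the files, on NCBI36, promoters are from RefSeq for GRCh38.p14, and all 10 genes matched by symbol. Precision is limited by the 6 arrays per treatment. Plots used Python 3.11.15 and matplotlib 3.10.9.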

Additional observations from a re-analysis of the deposited data

Results flagged for a closer look

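Among 80 sets of 6 values, the levels of the 10 genes in 4 treatments and their changes in 4 comparisons, 8 had a single value that stood apart by Dixon's test, which marks about 1 set in 20 by chance. Experiment 1 gave 4 of these. The EPHA2 level on its Ctl array was 1.74, against 1.04 to 1.11 on the others, and the EPHB2 level on its NaB array was 0.34, against -0.26 to -0.05. The EFNA1 level on its Doxy array was -0.023, against -0.65 to -0.45, and the EFNA4 change in NaB/Ctl was -0.23, against 0.17 to 0.35. The high levels were not particular to these arrays. EPHA2 was also highest in experiment 1 in Doxy (1.71), NaB (1.67) and DoxyNaB (1.45). EPHB2 was also highest there in Ctl (-1.85), Doxy (-2.10) and DoxyNaB (0.20). EFNA1 was also highest there in Ctl and NaB, but not in DoxyNaB.

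Experiment 2 gave 3. In DoxyNaB/Doxy EPHA1 changed by 2.29, against 1.30 to 1.52 in the others, and EFNB1 by 0.62, against 0.83 to 0.94, and in DoxyNaB/NaB EFNB2 changed by -0.33, against -0.01 to 0.17. The DoxyNaB array of experiment 2 enters all 3 and had the highest net signal of the negative controls, 248.9 where the median array had 63.7. Its part in these values was not tested. The EPHA4 change in DoxyNaB/Doxy was 1.29 in experiment 3, against 1.79 to 2.00.

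On its brighter probe, the butyrate response of GRB10 differed between cells without and with doxycycline, with an interaction of 1.01 in limma. This call ended under 6 of 23 alternatives. The other GRB10 probe had an interaction of 1.01 that did not pass (adjusted p of 0.0791 in limma).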

How the results depend on the processing

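Over 23 alternatives, the 10 members and 5 comparisons, 1104 of 1150 values kept their side of the threshold and, where called, their direction. Of the rest, 26 lost a call, 17 gained one and 3 reversed, which means a change of sign with a call before or after it. Changes of sign between values without a call were counted as kept. An example is EPHB4 in Doxy/Ctl, which ranged from -0.26 to 0.12 over the alternatives. The butyrate calls of EPHA1, EPHA4, EPHB2 and EPHB3 held in all 23. The reversals came in NaB/Ctl under median scaling after a floor of 5, for EPHA2 (-0.72), EFNA4 (-0.57) and EFNB1 (-0.10), where the median of all tested probes was -0.58. Among the other named genes EPHA10 reversed in NaB/Ctl after quantile normalization (-0.38) and under median scaling (-0.17), and SP5 in DoxyNaB/Doxy after quantile normalization (-0.0847). EFNB2 kept its direction under median scaling without passing (0.48, adjusted p of 0.0739 in limma).

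Of the member probes, 7 were called in NaB/Ctl when a fold over 2 was required, beside 31.7% of all tested probes. The methods' t-test unadjusted called 1 in Doxy/Ctl (EFNA4), beside 7.09% of all. In DoxyNaB/NaB 1 was called at an adjusted p under 0.05 (EFNA1), beside 4.67% of all. The NaB array of experiment 3 and the DoxyNaB array of experiment 2 had the brightest negative controls. Without these arrays 1 was called in DoxyNaB/NaB (EFNA1), beside 2.54% of all. Leaving out each experiment gave 11 to 12 calls in NaB/Ctl, 9 to 11 in DoxyNaB/Doxy, 0 in Doxy/Ctl, 0 to 1 in DoxyNaB/NaB (1 without experiment 2) and 0 in the interaction, beside 62.3% to 67.8%, 62.2% to 65.8%, 0.19% to 0.427%, 1.36% to 2.11% and 0.622% to 1.03% of all tested probes.

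Arrays of different treatments were correlated after each treatment's mean was subtracted from each probe. Within an experiment r was -0.22 to 0.85 over 36 pairs (median 0.60), 35 of them over 0.1. Between experiments r was -0.79 to 0.88 over 180 pairs (median -0.30), 58 of them over 0.1. Of the 24 arrays, 16 correlated best with an array of their own experiment. With no replicate block, limma called 11, 9, 0, 0 and 0 member probes in NaB/Ctl, DoxyNaB/Doxy, Doxy/Ctl, DoxyNaB/NaB and the interaction, beside 54.1%, 53.5%, 0.19%, 0.939% and 0.448% of all.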
